A study of Mus musculus with 4 samples.

Results

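The immediate early transcription factors measured here are 10 genes, Fos, Fosb, Jun, Junb, Egr1, Egr2, Egr3, Atf3, Klf4 and Btg2, of the 19934 genes with a row of their own on the array. A row was taken where the array's annotation gave it exactly 1 symbol and that symbol was among the 10, and each of the 10 had 1 such row. Expression was measured in whole kidney of Usp2-KO mice, which lack the ubiquitin protease gene Usp2, and of WT littermates, all C57BL6/N males aged 12 weeks that were killed at Zeitgeber Time 12 after 3 weeks in 12 h of light and 12 h of dark. The 6 littermate pairs gave 2 RNA pools per genotype, each of 3 mice, and each pool was run on 1 array, so n = 2 throughout. The labels give neither the exons removed in the Usp2-KO allele nor whether it is absent from all tissues. Pooling averages over mice, and variation among individual animals is therefore not seen. The smallest two-sided p of an exact permutation test over these 4 arrays is 0.333.

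Immediate early genes are switched on within minutes of a stimulus and need no new protein for it, because their promoters are held ready by factors such as SRF with its ternary complex partners and CREB. Kinase cascades activate those factors, the messages decay fast, and the proteins made then switch on later genes. In kidney, Fos, Jun, Egr1, Atf3 and Klf4 are known to be induced in tubule and vessel cells after ischaemia, toxins and other injury.

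Usp2 itself was at log2 11.63 and 11.71 in WT pools 1 and 2 and at 7.65 and 7.60 in the Usp2-KO pools. The difference was -4.04 (SE 0.07), so the arrays carried the genotypes on their labels. Array medians lay between 7.44 and 7.46, and arrays correlated at 0.997 to 0.998 across genes, which are not independent replicates. Kidney markers were present in every pool: Lrp2 of the proximal tubule lay between 13.54 and 13.61, Umod of the thick ascending limb between 13.36 and 13.45. Usp2 was the 1 gene of the whole table with a limma adjusted p under 0.05, against 153 genes (0.768%) with the littermate pools as a block.

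None of the 10 immediate early genes passed the adjusted threshold of 0.05 in limma, where 0.00502% of all genes did, and none passed with the littermate block. In values, 8 of the 10 were lower in Usp2-KO kidney and 2 were higher, where 52.5% of all genes were lower. Egr1, counted among the 8, had a difference that rounds to 0 (littermate values 0.12 and -0.12). The median difference of the 10 was -0.14 on the log2 scale, against -0.01 over all genes. For 6 of them, Fos, Fosb, Junb, Egr2, Egr3 and Klf4, both Usp2-KO pools lay below both WT pools, as did 19.1% of all genes. For 0 of the 10 did both Usp2-KO pools lie above both WT pools, as for 19.8% of all genes. That order makes these 6 lower in each of the littermate comparisons, so this is not a separate result. Of all genes, 25.3% were lower in both comparisons. At an unadjusted p under 0.05, limma gave 3 of the 10 as lower (Klf4, Junb and Egr2), where it gave 3.88% of all genes. The 10 were chosen with earlier results of these data known and were read on the same arrays. The shares of all genes are therefore given for scale and are no test of the list. The remaining 4, Jun, Egr1, Atf3 and Btg2, had overlapping groups and differed in opposite directions in the 2 littermate comparisons. In bulk tissue, fewer cells of a type and less RNA per cell cannot be told apart.

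**Figure D1:**
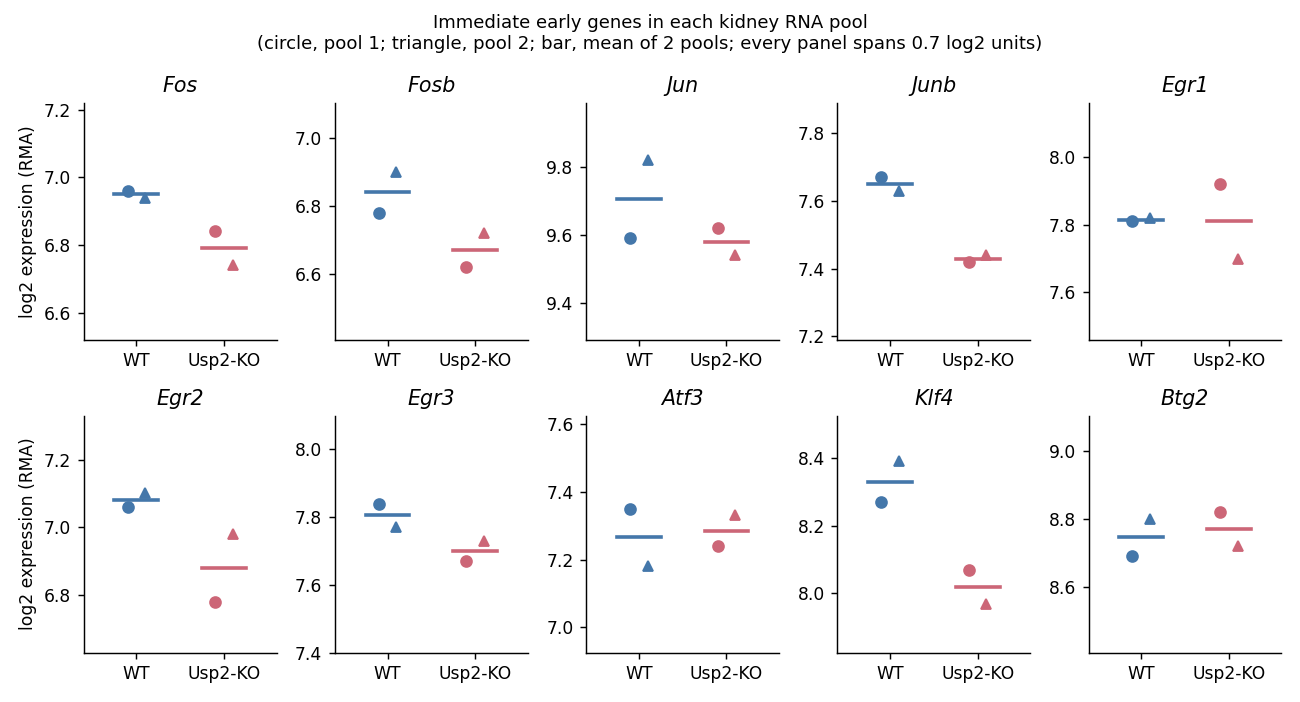
The log2 expression of each immediate early gene (vertical axes, each spanning the same width) in the WT (blue) and Usp2-KO (red) pools, with circles for pool 1, triangles for pool 2 and bars for the mean of 2 pools. In Fos, Fosb, Junb, Egr2, Egr3 and Klf4 both red points lie below both blue points, and in the other 4 genes the groups overlap.

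The stretch before the start site was examined because 6 of the genes were lower in both littermate comparisons. RefSeq promoter windows (GRCm38.p6) were found for 8 of the 10 genes, with no entry used for Egr1 and Egr3. The 250 bases before the start site were searched on both strands for the CArG box, at which SRF binds, for the cAMP response element TGACGTCA, for the AP-1 site TGANTCA, for TATAAA and for the GC box GGGCGG. The GC box was in 7 of the 8 genes, all but Junb, against 35.4% of the 27025 genes in the RefSeq table. The 7 include Jun, Atf3 and Btg2, whose groups overlapped. Genes with windows of like G and C content were not counted apart. A CArG box was in Egr2 alone of the 8 (1.62% of all genes), TGACGTCA in Btg2 alone (1.77%) and TATAAA in Fos alone (14.3%). TGANTCA was in none of the 8 and in 7.82% of all genes. Only exact matches within the 250 bases were counted. Sites further from the start site and sequences close to a motif were missed, so no match does not mean no site. Genes with several start sites had several windows and more chances of a match, and Egr2 had 5, of which the lowest in position with a CArG box is shown. The windows of Fos, Junb, Egr2 and Klf4 are shown as examples of the genes that were lower in both comparisons, and that of Btg2 for its complete cAMP response element in a gene whose groups overlapped. They are written 5′ to 3′ with matches in capitals, and neighbouring GC boxes that overlap form a single run. They lie at chr12:85473640-85473889 (plus strand) for Fos, chr8:84978749-84978998 (minus strand) for Junb, chr10:67537316-67537565 (plus strand) for Egr2, chr4:55532476-55532725 (minus strand) for Klf4 and chr1:134079156-134079405 (minus strand) for Btg2.
Fos: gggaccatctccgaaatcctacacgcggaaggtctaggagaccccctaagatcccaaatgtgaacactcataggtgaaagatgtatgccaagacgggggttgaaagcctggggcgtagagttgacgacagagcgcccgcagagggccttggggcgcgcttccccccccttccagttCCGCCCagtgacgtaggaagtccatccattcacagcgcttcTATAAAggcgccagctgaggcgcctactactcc
Junb: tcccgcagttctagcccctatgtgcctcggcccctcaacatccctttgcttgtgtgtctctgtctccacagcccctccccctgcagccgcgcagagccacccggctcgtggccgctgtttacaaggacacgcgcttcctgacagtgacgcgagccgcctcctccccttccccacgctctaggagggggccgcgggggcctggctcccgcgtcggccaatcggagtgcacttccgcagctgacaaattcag
Egr2: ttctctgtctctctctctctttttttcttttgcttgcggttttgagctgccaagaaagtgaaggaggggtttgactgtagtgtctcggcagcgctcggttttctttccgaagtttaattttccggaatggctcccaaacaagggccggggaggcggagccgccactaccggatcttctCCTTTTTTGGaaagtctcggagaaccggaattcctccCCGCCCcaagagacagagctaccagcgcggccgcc
Klf4: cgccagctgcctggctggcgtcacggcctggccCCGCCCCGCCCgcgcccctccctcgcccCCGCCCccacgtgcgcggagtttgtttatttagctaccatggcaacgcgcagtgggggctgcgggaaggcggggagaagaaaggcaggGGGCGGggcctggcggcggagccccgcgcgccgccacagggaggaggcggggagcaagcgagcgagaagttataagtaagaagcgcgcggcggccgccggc
Btg2: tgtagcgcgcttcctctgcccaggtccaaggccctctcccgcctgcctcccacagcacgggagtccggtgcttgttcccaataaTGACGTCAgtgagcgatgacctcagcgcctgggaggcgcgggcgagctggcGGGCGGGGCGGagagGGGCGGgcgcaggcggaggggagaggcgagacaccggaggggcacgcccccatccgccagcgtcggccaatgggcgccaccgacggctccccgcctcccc
In the Fos window, TATAAA began 33 bases before the start site and a GC box 74 bases before it. The CArG box shown for Egr2 began 72 bases before that start site. In Btg2 the cAMP response element began 166 bases before the start site, and 3 GC boxes followed it. The Junb window held no match to the 5 motifs, and Klf4 held 4 GC boxes and no other match. The G and C content ran from 54.0% in the Egr2 window to 74.0% in that of Klf4. These matches describe letters in a window and no binding was measured.

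Fos and Fosb encode the Fos subunits of AP-1, which bind DNA only as partners of a Jun protein. Fos was at 6.96 and 6.94 in WT pools 1 and 2 and at 6.84 and 6.74 in the Usp2-KO pools. Both Usp2-KO values lay below the WT values, whose SD was 0.01, against 0.07 in Usp2-KO kidney. The difference was -0.16 (SE 0.07, 95% confidence interval -0.32 to 0.01), and the limma adjusted p was 0.562. Fosb was at 6.78 and 6.90 in the WT pools and at 6.62 and 6.72 in the Usp2-KO pools. Pool 1 was the lower pool in each genotype, and the littermate differences of -0.15 and -0.18 were nearly equal. The difference of -0.17 (SE 0.08, limma adjusted p = 0.571) had an interval of -0.34 to 0.01. Fos and Fosb were both among the genes with a mean signal under 7.71, the median of all genes, and the table holds no detection calls.

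Jun and Junb encode Jun subunits, of which JunB is known as the weaker activator and often opposes c-Jun. Junb was at 7.67 and 7.63 in the WT pools and at 7.42 and 7.44 in the Usp2-KO pools. The pools of each genotype lay close together, with an SD of 0.03 in WT and 0.01 in Usp2-KO kidney, and the groups did not overlap. The difference of -0.22 (SE 0.07, 95% confidence interval -0.38 to -0.06), or 1.16-fold, had an unadjusted p of 0.0134 and an adjusted p of 0.402 in limma. Jun was at 9.59 and 9.82 in WT kidney and at 9.62 and 9.54 in Usp2-KO kidney. WT pool 2 stood above the other pools, and the littermate differences were 0.03 and -0.27. The mean difference of -0.12 (SE 0.09, limma adjusted p = 0.737) was -0.01 without that pool. Atf3, a stress-induced relative that pairs with Jun proteins and mostly represses, was at 7.35 and 7.18 in WT and at 7.24 and 7.33 in Usp2-KO kidney. The groups overlapped, and the difference of 0.02 had an interval of -0.17 to 0.20.

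The Egr genes encode zinc finger activators that bind GC-rich sites. Egr2 was at 7.06 and 7.10 in the WT pools and at 6.78 and 6.98 in the Usp2-KO pools. Usp2-KO pool 1 was the lowest, and without it the difference of -0.20 (SE 0.08, 95% confidence interval -0.39 to -0.01) was -0.10. The unadjusted p was 0.0439 and the adjusted p 0.532 in limma. Egr3 was at 7.84 and 7.77 in WT and at 7.67 and 7.73 in Usp2-KO kidney. The groups were separate but by little, with littermate differences of -0.17 and -0.04 and a mean difference of -0.10 (SE 0.07, limma adjusted p = 0.712). Egr1, the most studied of the family, was at 7.81 and 7.82 in the WT pools and at 7.92 and 7.70 in the Usp2-KO pools. The Usp2-KO values lay on either side of the WT values, and the littermate differences of 0.12 and -0.12 cancelled. Its interval of -0.20 to 0.20 still allows a difference as large as that of Egr2.

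Klf4 encodes a zinc finger factor of epithelia, podocytes and endothelium that is best known for holding differentiated states and for its use in reprogramming. Klf4 was at 8.27 and 8.39 in WT pools 1 and 2 and at 8.07 and 7.97 in the Usp2-KO pools. The groups did not overlap, and the SD was 0.08 in WT and 0.07 in Usp2-KO kidney. The difference was -0.31 (SE 0.08, 95% confidence interval -0.49 to -0.14), or 1.24-fold, and Klf4 stood at rank 198 of all genes by p. The unadjusted p was 0.00312, and the limma adjusted p was 0.313, or 0.0879 with the littermate block. Leaving out each pool in turn gave differences between -0.37 and -0.26. Btg2, an antiproliferative cofactor that p53 and growth factors induce, is the 1 gene of the set whose protein does not itself bind DNA. Btg2 was at 8.69 and 8.80 in WT and at 8.82 and 8.72 in Usp2-KO kidney, and the pools of the genotypes overlapped. The difference was 0.03, with an interval of -0.15 to 0.21.

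**Figure D2:**
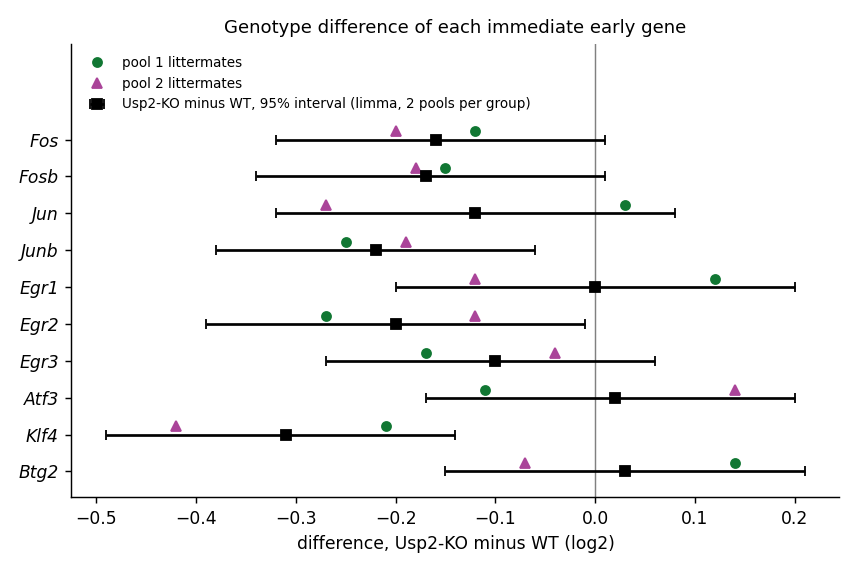
The Usp2-KO minus WT difference of each immediate early gene on the log2 scale (black squares, with 95% intervals from limma over 2 pools per group), and the differences within pool 1 (green circles) and pool 2 (purple triangles) littermates. The intervals of Junb, Egr2 and Klf4 lie below 0, none of these passed after adjustment over all genes, and Jun, Egr1, Atf3 and Btg2 have littermate values on both sides of 0.

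The genes whose values over the 4 arrays lay nearest to those of Klf4, the member of widest range (0.42), were Jhy, Tubb4a, Stra6, Kcnmb4 and Phlda2. The likeness was the root mean square distance of row-centred log2 values, taken over genes with a mean of at least 6, and it ran from 0.0132 for Jhy to 0.0281 for Phlda2. Stra6, the receptor for retinol-binding protein, was at 9.00 and 9.13 in WT and at 8.84 and 8.72 in Usp2-KO kidney. Phlda2, an imprinted gene, differed by -0.31, Tubb4a, a tubulin, by -0.33, and Kcnmb4, a potassium channel subunit, by -0.30. These genes were picked for values near those of Klf4, so differences close to that of Klf4 follow from the choice. With 4 arrays, many genes can come this near.

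Other genes of the early response were taken from 3 lists, of AP-1 and related partners, of other inducible transcription factors, and of feedback and effector genes. Of 58 listed genes, 55 had a row of their own. Of these 0 passed in limma after adjustment, 28 were higher and 27 lower, and the median difference was 0.01. At an unadjusted p under 0.05, limma gave 4 of the 55 as higher and 3 as lower, where it gave 5.22% and 3.88% of all genes, so these counts are near the background. Both Usp2-KO pools lay below both WT pools for 9 of the 55 and above them for 8, where 19.1% and 19.8% of all genes did so.

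Among the AP-1 partners, Fosl1, a Fos relative, was at 7.18 in each WT pool and at 7.07 and 6.94 in the Usp2-KO pools. Its difference of -0.18 had an unadjusted p of 0.0433 in limma and an adjusted p of 0.532. Jund, the gene of the third Jun protein, was at 10.03 and 10.22 in WT and at 10.09 and 9.89 in Usp2-KO kidney, and the groups overlapped. Batf, a partner of Jun proteins in lymphocytes, differed by -0.11, and Cebpd, a C/EBP factor of the acute phase response, by 0.09. Among the other inducible factors, Egr4 differed by -0.13 (littermate values -0.25 and 0.00), the orphan receptor gene Nr4a1 by -0.11 (0.10 and -0.31), Nr4a3 by -0.06 and Srf by -0.06. Of the 13 genes in that list, 1 had Usp2-KO pools that both lay below WT and 0 had both above (19.1% and 19.8% of all genes).

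The feedback and effector genes held the widest differences. Gadd45a, a growth arrest gene that p53 also induces, was at 8.01 and 8.13 in WT and at 7.77 and 7.80 in Usp2-KO kidney. Its relative Gadd45g went the other way in value, with 8.92 and 9.10 in WT and 9.40 and 9.27 in Usp2-KO kidney. The differences were -0.28 (SE 0.07, limma adjusted p = 0.326) and 0.33 (SE 0.09, limma adjusted p = 0.336). Nab1, a corepressor that binds Egr proteins, was at 8.61 and 8.57 in WT and at 8.81 and 8.76 in Usp2-KO kidney, higher by 0.19 in each littermate comparison (limma adjusted p = 0.466). Its relative Nab2, itself a target of Egr factors, differed by -0.09. Rgs2, which dampens signalling of G protein-coupled receptors, differed by 0.22 (limma adjusted p = 0.470). Dusp1, the phosphatase that switches off MAP kinases, was at 12.10 and 12.36 in WT and at 12.22 and 12.13 in Usp2-KO kidney. Dusp1 thus lay higher in Usp2-KO kidney in pool 1 and lower in pool 2, as did Zfp36, which speeds the decay of early messages (0.14 and -0.26).

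That split by pool was frequent. Of the 55 other early response genes, 28 (50.9%) were higher in Usp2-KO kidney in pool 1 and lower in pool 2, against 27.7% of all genes, and 5 had the reverse. Among the 10 immediate early genes, Jun, Egr1 and Btg2 had this split, Atf3 had the reverse, and 6 were lower in both. The medians of the 10 were -0.14 in pool 1 and -0.15 in pool 2, and those of the 55 were 0.07 and -0.08. In the list of feedback and effector genes, the median row-centred value was -0.04 in WT pool 1, 0.05 in WT pool 2, 0.03 in Usp2-KO pool 1 and -0.01 in Usp2-KO pool 2. For the 10 immediate early genes it was 0.08 in each WT pool, and -0.06 and -0.07 in the Usp2-KO pools.

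**Figure D3:**
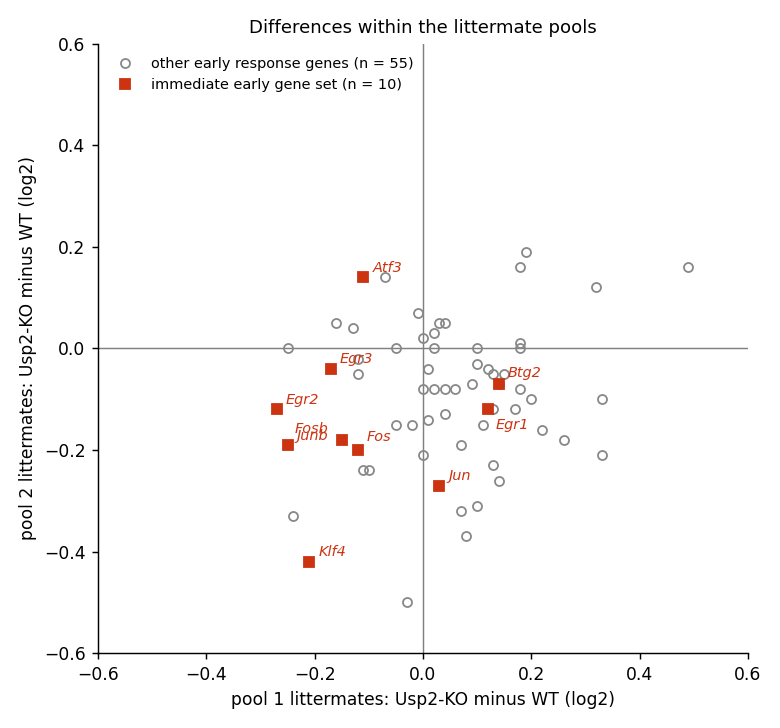
Usp2-KO minus WT on the log2 scale in pool 1 littermates (horizontal axis) and pool 2 littermates (vertical axis), with red squares for the 10 immediate early genes and open circles for the 55 other early response genes. At the lower left, where both values are below 0, lie 6 of the 10 immediate early genes and 10 of the 55 others (25.3% of all genes).

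Upstream of these genes, 20 of 27 listed kinases and factors had a row of their own. None passed in limma after adjustment, 1 was higher at an unadjusted p under 0.05 (5.22% of all genes) and 0 were lower (3.88%), and the median difference was 0.00. Creb1, which encodes the factor that binds cAMP response elements, was at 8.93 and 8.87 in WT and at 9.07 and 9.11 in Usp2-KO kidney, a difference of 0.18 (SE 0.07, limma adjusted p = 0.487). Crem, of the same family, differed by 0.18, Rps6ka3, a kinase that phosphorylates CREB and Srf, by 0.20, and Mapk9, a Jun kinase gene, by 0.13. The SRF partners Elk1, Elk3 and Elk4 differed by -0.06, 0.00 and 0.00.

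**Figure D4:**
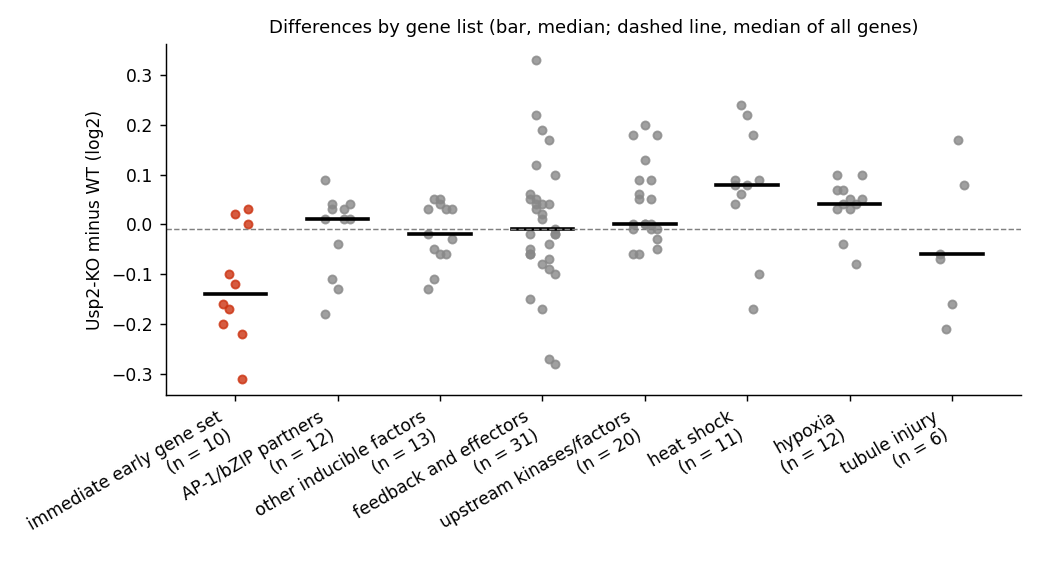
Usp2-KO minus WT (log2) of every measured gene in the immediate early gene set (red) and in the 7 other lists (grey), with a bar at each list's median and a dashed line at the median of all genes (-0.01). The immediate early genes have the lowest median of these 8 lists, at -0.14, and the heat shock list the highest, at 0.08.

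Immediate early genes are short, and the genotype difference varied with gene length. Their length in the genome (GRCm38.p6) ran from 1840 bases for Junb to 13038 bases for Atf3, with a median of 4794 against 17748 over all genes. When all genes were split into 10 bins by length, Fos, Jun, Junb, Egr1 and Btg2 fell in bin 2, Fosb, Egr2, Egr3 and Klf4 in bin 3, and Atf3 in bin 5. The median difference of all genes was -0.04 in bin 2, where 64.5% of genes were lower in Usp2-KO kidney, -0.03 in bin 3, and 0.02 in bin 9 of long genes. With each bin's median removed, a step chosen after the data were seen, Klf4 differed by -0.28, Junb by -0.18, Egr2 by -0.16, Fosb by -0.13 and Fos by -0.12, and the median of the 10 was -0.10. Signal moved with the difference as well: in bins of mean signal, the 4th and 5th of 10, which hold Fos, Fosb, Junb, Egr2 and Atf3, had medians of -0.03 and -0.02. The 6th, 7th and 9th, which hold the other 5 genes, had medians of 0.00, 0.02 and 0.02. The part of signal in these results was not tested.

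**Figure D5:**
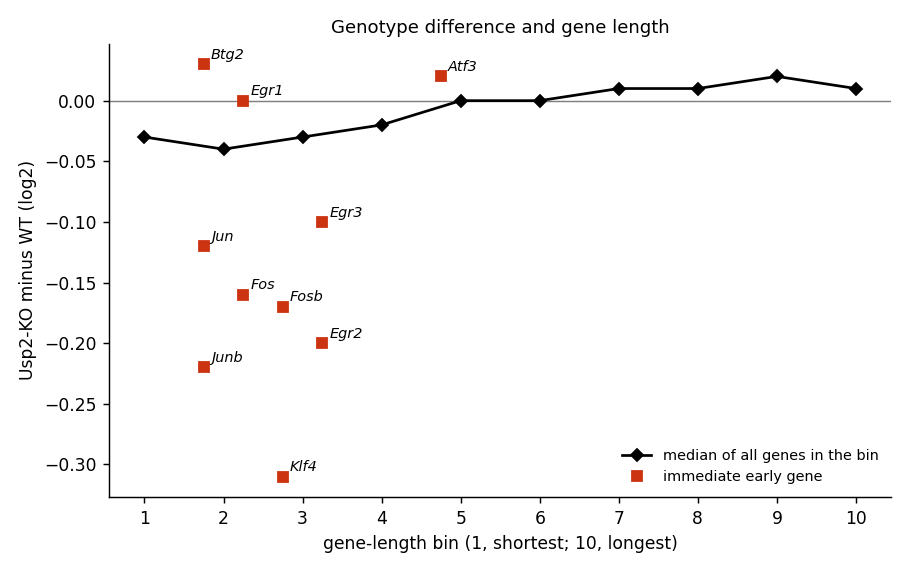
Usp2-KO minus WT (log2, vertical axis) against the bin of gene length (horizontal axis, 10 bins of all genes), with black diamonds for the median of all genes in a bin and red squares for the 10 immediate early genes. The medians run from -0.04 in bin 2 to 0.02 in bin 9, and 7 of the 10 genes lie below the median of their bin.

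Marker lists of the cells that a kidney sample can hold had medians on both sides of 0, and their part in the differences above was not tested. All 6 urothelial markers were lower in Usp2-KO kidney by mean difference (median -0.15), but 3 of them were higher in pool 1 littermates. Their median was 0.01 in pool 1 littermates and -0.25 in pool 2. The summed signal was 1150 and 1380 in WT pools 1 and 2, and 1160 and 1070 in the Usp2-KO pools. Of 8 adipocyte markers 7 were lower (median -0.20), and the low values lay mostly in Usp2-KO pool 1, where Adipoq was at 6.28 against 6.95 to 7.10 in the other pools. The summed signal did not follow them, with 4860 and 4290 in WT pools 1 and 2 and 4310 and 4180 in the Usp2-KO pools. Lpl, at 11.42 to 11.73, had the highest signal of these markers. No adipocyte marker passed in limma, while Adipoq, Retn and Cidec passed with the littermate block (adjusted p = 0.00378, 0.014 and 0.0171). Their littermate differences were unequal, at -0.83 and -0.12 for Adipoq, -0.69 and -0.14 for Retn, and -0.80 and -0.04 for Cidec. The block fit takes most of its spread from all genes, and the SE of Cidec was 0.10 with it against 0.19 without. All 5 pancreatic genes were lower (median -0.15), with sums of 379 to 393 and 345 to 348. Their mean signals all lay under 7.71, the median of all genes, in signal bins where 57.2% to 65.7% of all genes were lower. The median of 7 endothelial markers, 6 of them lower, was -0.04, and that of 7 smooth muscle markers, 6 of them higher, was 0.10. Podocyte markers had a median of 0.05 over 4 genes and immune markers of -0.01 over 9. The T cell gene Cd3e was at 8.15 in each WT pool and at 7.91 and 7.94 in the Usp2-KO pools. In the distal and collecting duct 5 of 6 markers were higher (median 0.22), with sums of 14800 to 15000 in WT and 15600 to 15700 in Usp2-KO pools. Calb1, a calcium carrier, was at 10.80 and 10.83 in WT and at 11.14 and 11.38 in Usp2-KO kidney, with a limma adjusted p of 0.286, or 0.00391 with the littermate block. The thick ascending limb had 3 of 4 markers higher (median 0.12), and the 6 proximal tubule markers had a median of 0.01. No marker was at 0, as the authors' values have no zero.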

How the data were processed

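The authors deposited log2 values. Per the submitters' processing notes these come from RMA (version and genome build are not given in the sources used here), applied to arrays hybridised with target from 300 ng of pooled RNA by an Affymetrix whole-transcript protocol, per the labels' protocols. Values ran from 2.37 to 14.58. RMA forces equal distributions on the arrays, so a shift of all genes cannot be seen. Of 28270 rows, 21780 had 1 gene symbol, 1617 several and 4873 none in the array annotation. The row of highest mean was kept per gene, without a signal filter. Usp2-KO minus WT was fitted over 19934 genes by limma 3.58.1 (R 4.3.3) without a block, with Benjamini-Hochberg adjustment and a threshold of 0.05. The fit was tested on simulated data. The series' design text says that littermates stayed paired across pools of the same number. The deviations of same-numbered pools correlated at -0.121 across genes. Named genes were the members, Usp2, up to 4 genes of smallest p per list and the 5 genes nearest to the member of widest range. Nab2, Dusp1, Zfp36, Elk1, Elk3, Elk4 and the cell type markers were picked with their values in view. The members and lists were chosen with earlier results of these data known. Replicates are pools, and their number limits precision. Alternatives were the block, prior, filters, row choice, scaling, threshold and left-out pools. Figures used matplotlib 3.10.9.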

Additional observations from a re-analysis of the deposited data

How the results depend on the processing

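The 2 pools per genotype set the limit here: the median SE over all genes was 0.08, and a difference of that size cannot be told from 0. Larger differences did not pass either, as for Klf4 at -0.31 (limma adjusted p = 0.313). With the littermate pools as a replicate block 153 genes of the whole table passed and 0 of the 10 immediate early genes, against 1 and 0 without it, and with crossed pool numbers as the block 1 and 0. The littermate block fit drew its spread mostly from all genes together (90.6 prior degrees of freedom, against 6.87 without a block). Its p therefore does not measure how well the littermate comparisons of a gene agree. The count over the whole table was 18 with an intensity trend, 7 with signal above the median of all genes, 7 with a mean log2 value of at least 6, 2 at an adjusted p under 0.10, and 1 to 2 when each pool was left out. No immediate early gene passed in any of these. The filter at the median signal kept 5 of the 10, of which 2 were lower in both littermate comparisons, and their median difference was -0.10. The median of the 10 was -0.17 to -0.12 with a pool left out and -0.10 with the gene-length bins removed. Signs were compared for the 10 immediate early genes alone, none of which was called, and turned only in genes near 0. Leaving out each pool in turn put Btg2 between -0.03 and 0.09, Atf3 between -0.07 and 0.10, and Egr1 between -0.12 and 0.11. With the length bins removed Egr1 was at 0.03. The 7 other lists had 0 calls under all of these alternatives. The cause of these changes was not tested.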

Other observations

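Stress genes outside the early response had values in other directions. Of 11 heat shock genes 9 were higher in Usp2-KO kidney by mean difference, with a median of 0.08. The median of the 11 was 0 in pool 1 littermates and 0.16 in pool 2, and 5 were higher in both. In limma 0 passed after adjustment (2 higher and 1 lower at an unadjusted p under 0.05, against 5.22% and 3.88% of all genes). Dnaja1, a cochaperone, was at 9.84 and 9.74 in WT and at 9.92 and 10.14 in Usp2-KO kidney. Hsp90aa1, the inducible Hsp90, differed by 0.22 and Hspd1, a mitochondrial chaperonin, by 0.18, while Hspb1, a small heat shock protein, differed by -0.17. Of 12 genes of the hypoxia response 10 were higher, with a median of 0.04 and no gene at an unadjusted p under 0.05 in limma. Of all genes 52.5% were lower. A signal above the median was seen for 10 of the 11 heat shock and 11 of the 12 hypoxia genes. In signal bins 7 to 10, 42% to 43.6% of all genes were lower, and the part of signal here was not tested.

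Of 6 measured tubule injury genes 4 were lower and 2 higher, with a median of -0.06. None passed in limma after adjustment, and at an unadjusted p under 0.05 limma gave 1 as higher and 1 as lower, against 5.22% and 3.88% of all genes. Lcn2, a secreted injury marker, was at 8.01 and 7.86 in WT and at 7.81 and 7.64 in Usp2-KO kidney, a difference of -0.21. Clu, which encodes clusterin, was at 10.55 and 10.56 in WT and at 10.71 and 10.74 in Usp2-KO kidney, a difference of 0.17. Krt20, a keratin of injured tubules, was at 5.58 and 5.68 in WT and at 5.52 and 5.43 in Usp2-KO kidney, a difference of -0.16.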
